A study of Mus musculus with 4 samples.

Results

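Nuclear receptors are transcription factors that sit on DNA and are switched by small fat-soluble ligands, and 35 of them, chosen by name and outside the circadian clock and thyroid hormone groups, are described here in brown fat of mice lacking Tsku. They cover the fatty acid sensors Ppara and Ppard, the retinoic acid receptors (Rara, Rarb, Rarg) and their retinoid X partners (Rxra, Rxrb, Rxrg), the sterol and bile acid sensors, the steroid and vitamin D receptors, and a set of orphan receptors with no agreed natural ligand. A receptor was measured when the platform annotation gave a probe set, the group of probes read together for a transcript, its symbol alone, and where a gene had several, the one of highest mean signal was kept. That rule found 33 of the 35 receptors among 22180 genes measured in the series. Nr1h2 and Nr2e3 had no such probe set and were not analysed here. Of the 33, 32 had 1 probe set and Nr3c2 had 2.

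The groups are 2 samples from Tsku KO mice and 2 from WT mice, all of brown adipose tissue (BAT) of male C57BL/6 mice, 4 months old and on a chow diet, with 1 whole-transcript array per sample. Tsku encodes tsukushi, a secreted protein of the small leucine-rich proteoglycan family, and the labels do not give how the allele was made. Tsku has 0 listed probe sets, which leaves the labels as the sole basis of the genotypes. The labels call the samples biological replicates and do not add that each is a separate mouse. The p-values here therefore reflect the spread between these samples alone, part of which may be technical. The comparison of KO with WT asks what differs in the brown fat transcriptome when Tsku is lost.

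Ligand-bound receptors recruit coactivators, which open chromatin, and many unliganded ones hold corepressors, which close it. The peroxisome proliferator-activated receptors, the retinoic acid receptors and the liver X and farnesoid X receptors bind DNA as pairs with a retinoid X receptor, whereas steroid receptors pair with themselves and several orphan receptors bind alone. In brown fat, fatty acids released from lipid droplets serve both as fuel for heat and as ligands of Ppara, and in rodents retinoic acid is known to raise thermogenic genes and glucocorticoids to restrain them.

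The values come from 4 arrays of 41345 probe sets each, and so few arrays limit the precision. Values are deposited log2 signals with an offset of unstated origin, so a level of 0 is not absence. The background of an array is the 95th percentile of its signals for olfactory and vomeronasal receptor genes (1405 probe sets), which fat is not known to use. It lay at 0.81 and 0.70 on the KO arrays, against 0.63 and 0.77 on the WT arrays. Between 50.2% and 53.6% of genes exceeded it on an array. The tissue label was checked with 10 brown adipocyte markers, Ppara among them, of which 9 exceeded background on all 4 arrays. Their mean log2 signal was 6.45 and 6.31 in KO, against 5.85 and 5.71 in WT.

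Ppara, the sensor that switches on fatty acid oxidation, had the strongest signal of the 33 receptors in brown fat. It read 6.72 and 6.90 in KO, against 6.82 and 6.65 in WT, ranked first of the 33 on every array and stood at the 97.4th percentile of all genes by mean signal. Ranks 2 and 3 went to Nr3c1, the glucocorticoid receptor, at 5.40 and 5.52 in KO against 5.69 and 5.85 in WT, and to Esr1, the oestrogen receptor alpha, at 5.49 and 5.34 in KO against 5.16 and 4.89 in WT. Nr3c1 and Esr1 exchanged places on KO replicate 1. Each was separated from the receptors after it on all 4 arrays, since no lower receptor reached rank 3 on any array.

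The next 4 receptors, Nr2c1, Nr2c2, Nr1h3 and Rxra, lay between 3.75 and 4.86 and traded ranks 4 to 8 among the arrays, with Esrrg at ranks 7 to 9, so their order is not larger than the spread between arrays. Nr2c1 read 4.71 and 4.60 in KO, against 4.23 and 4.56 in WT. Its relative Nr2c2 read 4.40 and 4.39 in KO, against 4.05 and 4.86 in WT. Both are orphan receptors, named for the testis in which they were found, that bind repeats of the same short sequence as the retinoid receptors. Nr1h3, the oxysterol sensor called liver X receptor alpha, read 4.27 and 4.50 in KO, against 4.34 and 4.23 in WT. Rxra, the retinoid X receptor most used as a partner in liver and fat, read 4.44 and 4.26 in KO, against 3.75 and 4.41 in WT. Esrrg, the estrogen-related receptor gamma that drives oxidative metabolism genes, read 3.24 and 3.67 in KO, against 3.04 and 4.24 in WT. For all of these 5 but Nr2c1 the genotypes overlapped.

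**Figure D1:**
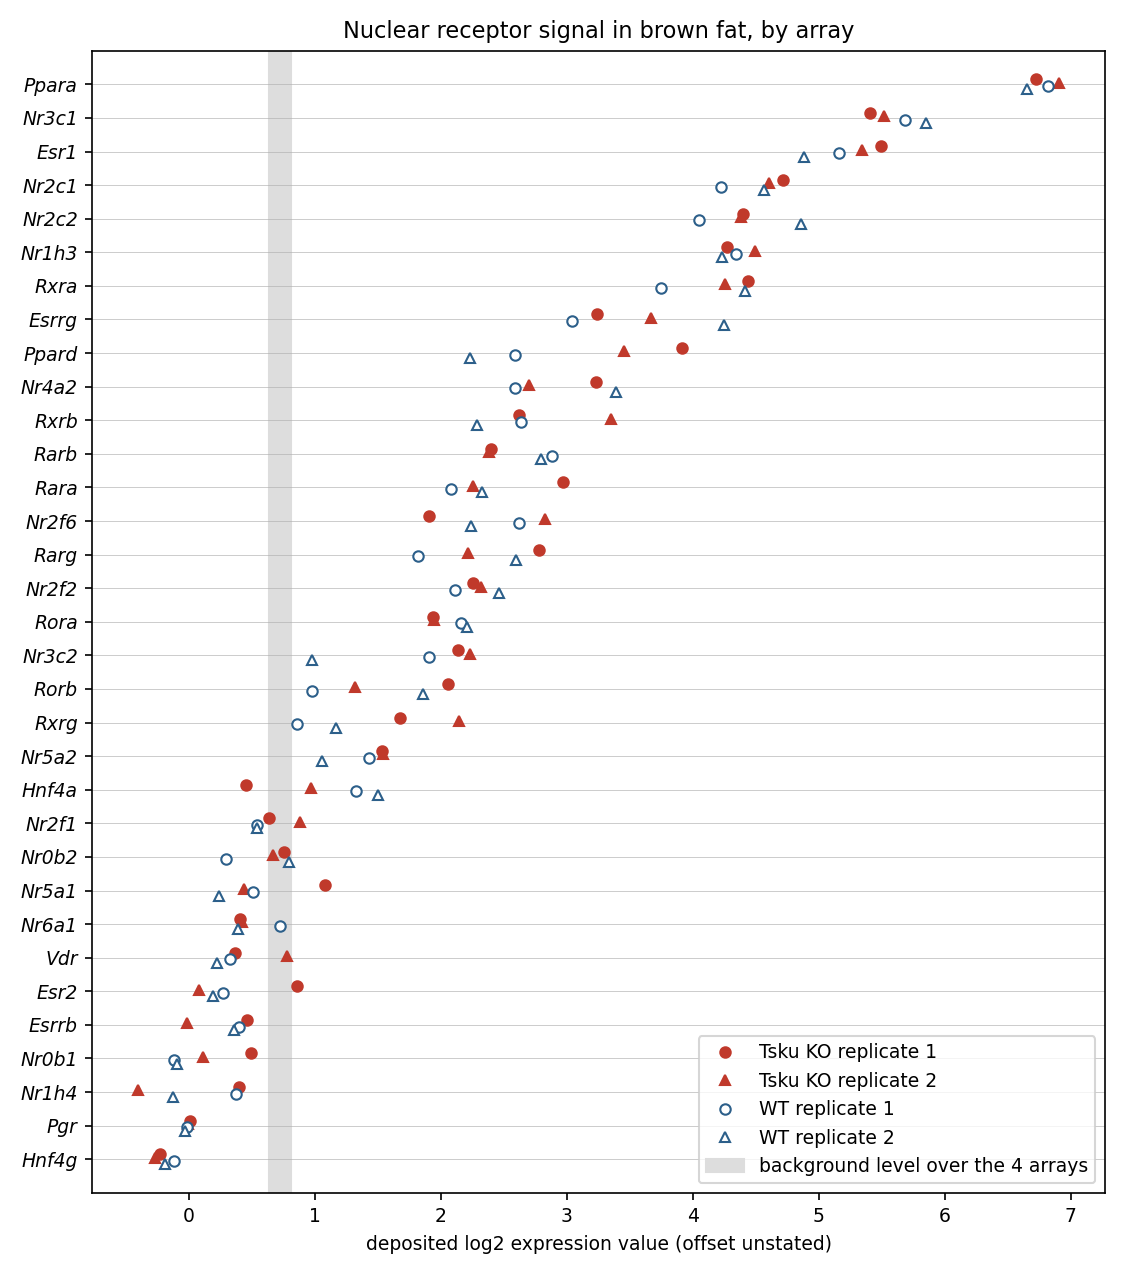
Deposited log2 signal (x axis, offset unstated) of the 33 measured receptors (rows, by mean signal) on the 2 Tsku KO arrays (filled symbols) and the 2 WT arrays (open symbols), with the background range of the 4 arrays in grey. Ppara stands alone at 6.65 to 6.90, Nr3c1 and Esr1 follow, and the lowest receptors lie at or below background.

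Ppard, the other fatty acid sensor of the list, held mean rank 9, but ranks 8 and 9 on the KO arrays against 12 and 16 on the WT arrays. From rank 10 to rank 21, from Nr4a2 (mean 2.98) to Nr5a2 (mean 1.39), neighbours swapped places from array to array, so their order is within the spread. The order compares signals of different probe sets, which bind their transcripts with different strength, so it is an order of signals and not of RNA copies. Across pairs of arrays the rank correlation over the 33 receptors was 0.917 to 0.964, a description over genes that share their arrays.

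Of the 33 receptors, 21 (63.6%) exceeded background on all 4 arrays, against 44.8% of all genes. A further 7 exceeded it on some arrays, and 5 (15.2%) on none, against 39.4% of all genes. All 3 retinoic acid receptors, all 3 retinoid X receptors, both fatty acid sensors, both testicular receptors and both retinoid-related orphan receptors were above it on all arrays. Of the steroid group Nr3c1, Esr1 and Nr3c2 were, whereas Esr2 and Vdr were on 1 array each and Pgr on none. Neither hepatocyte nuclear factor 4 gene was above background on all 4 arrays. The 5 receptors below background throughout were Esrrb, a receptor of embryonic stem cells, Nr0b1, a repressor of adrenal and gonadal genes, Nr1h4, the bile acid sensor, Pgr, the progesterone receptor, and Hnf4g, a relative of Hnf4a in gut.

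No receptor passed the test between genotypes. With limma and Benjamini-Hochberg adjustment over all genes, 0 of 33 receptors had an adjusted p under 0.05, and the share over all genes was 0% (0 of 22180). The receptors' limma adjusted p-values ran from 0.872 to 0.9996. At an unadjusted p under 0.05 there were 4 receptors (12.1%), against 5.56% of all genes. Ppard and Rxrg were the 2 read higher in KO (6.06%, against 2.89% of all genes), and Hnf4a and Rarb the 2 read lower (6.06%, against 2.67%).

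By direction alone, 21 receptors (63.6%) read higher in KO and 12 lower, against 52.6% of all genes higher. Both KO arrays lay above both WT arrays for 10 receptors (30.3%, against 19.4% of all genes) and below them for 5 (15.2%, against 15.8%). The higher ones include Nr0b1 and Pgr, below background on all 4 arrays, and Nr2f1 and Vdr, below it on both WT arrays. The lower ones include Hnf4g, also below it throughout. For 10 receptors (30.3%) the difference exceeded both gaps between replicates, which held for 22.6% of all genes. Nr0b1, Pgr and Hnf4g are among these 10 as well. The median log2 difference, KO minus WT, was 0.17 over the receptors and 0.02 over all genes. It was 0.06 without KO replicate 1, 0.09 without WT replicate 1 and 0.24 without WT replicate 2. KO replicate 1 had the highest value of the 4 arrays for 13 receptors, and WT replicate 1 the lowest for 13.

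The absolute difference between genotypes was at most 0.5 on the log2 scale for 28 of the 33 receptors and above 1 for 1 of them, Ppard. Its median was 0.26 over the receptors and 0.18 over all genes. The median standard error of a difference was 0.23 and the median half-width of its 95% interval 0.57. The median gap between replicates was 0.25 in KO and 0.31 in WT.

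**Figure D2:**
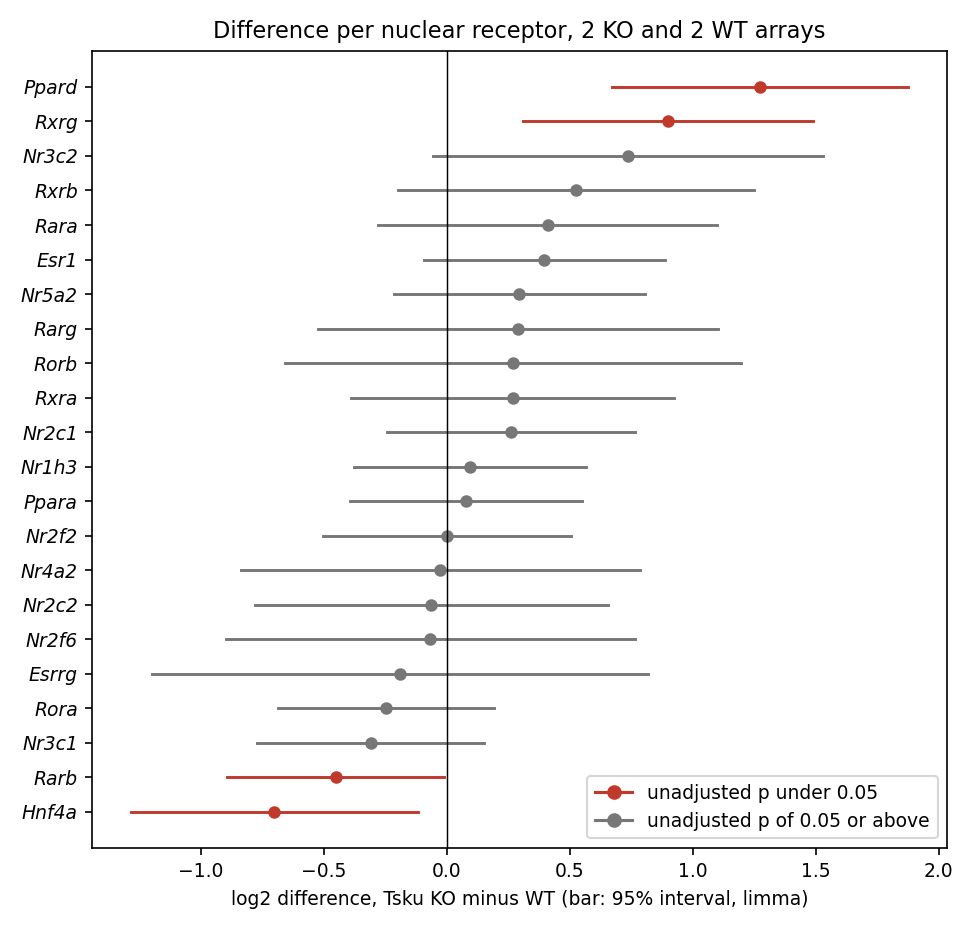
Log2 difference, Tsku KO minus WT (x axis), of the 22 receptors above background on at least 1 array of each genotype (rows), with bars for the 95% interval of the limma fit. The 4 receptors with an unadjusted p under 0.05 (red) are Ppard, Rxrg, Hnf4a and Rarb, and the intervals of the others (grey) include 0.

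Ppard, the sensor known for driving fatty acid use in muscle and fat, showed the largest difference among the receptors. It read 3.92 and 3.46 in KO, against 2.59 and 2.23 in WT. Both KO arrays stood well above both WT arrays, and the distance between genotypes exceeded the gap within either. The means were 3.69 ± 0.33 in KO and 2.41 ± 0.25 in WT (SD, n = 2 each), which is 2.42-fold higher, or 1.27 on the log2 scale (SE 0.25, 95% interval 0.67 to 1.88). Its unadjusted limma p was 0.00209 and its adjusted p 0.872, and over 7 other settings and the 4 fits without single arrays the adjusted p ran from 0.241 to 0.927. Without single arrays the difference was 1.04 to 1.50.

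Rxrg, a retinoid X receptor otherwise known from muscle and brain, was much dimmer. It read 1.68 and 2.15 in KO, against 0.86 and 1.17 in WT, where it stood just above background. The genotypes did not overlap. The means were 1.91 ± 0.33 in KO and 1.01 ± 0.22 in WT (SD, n = 2 each), which is 1.87-fold higher, or 0.90 on the log2 scale (SE 0.24, 95% interval 0.31 to 1.49). The unadjusted limma p was 0.00981 and the adjusted p 0.872. Without single arrays the difference was 0.67 to 1.13, and the unadjusted p stayed under 0.05 in 3 of those 4 fits.

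Hnf4a, a regulator of liver and gut genes, went the other way at the edge of detection. It read 0.46 and 0.97 in KO, with the first of these below background, against 1.33 and 1.50 in WT. Both WT arrays exceeded both KO arrays. The means were 0.71 ± 0.36 in KO and 1.41 ± 0.12 in WT (SD, n = 2 each), a log2 difference of -0.70 (SE 0.24, 95% interval -1.28 to -0.12, unadjusted limma p 0.0258, adjusted p 0.872). Without single arrays it was -0.96 to -0.44, with an unadjusted p under 0.05 in 2 of those 4 fits. In the same samples 11 of 12 liver markers read higher in KO, so Hnf4a and that list moved in opposite directions. The list's mean log2 signal was 1.88 and 1.13 in KO, against 1.08 and 0.91 in WT, 5 of its genes exceeded background on all 4 arrays, and its median difference of 0.31 was -0.07 without KO replicate 1.

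Rarb, the retinoic acid receptor that retinoic acid itself induces, was close between replicates. It read 2.40 and 2.38 in KO, against 2.88 and 2.80 in WT, with no overlap. The means were 2.39 ± 0.01 in KO and 2.84 ± 0.06 in WT (SD, n = 2 each), which is 1.37-fold higher in WT, or -0.45 as the log2 difference of KO minus WT (SE 0.18, 95% interval -0.89 to -0.01). The unadjusted limma p of 0.0464 lay just under 0.05, and the adjusted p was 0.872. The unadjusted p was above 0.05 in all 4 fits without single arrays, with a filter at the median level (0.0605) and with arrays centred on their medians (0.0512). The direction was the same in each of them, at -0.49 to -0.41.

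**Figure D3:**
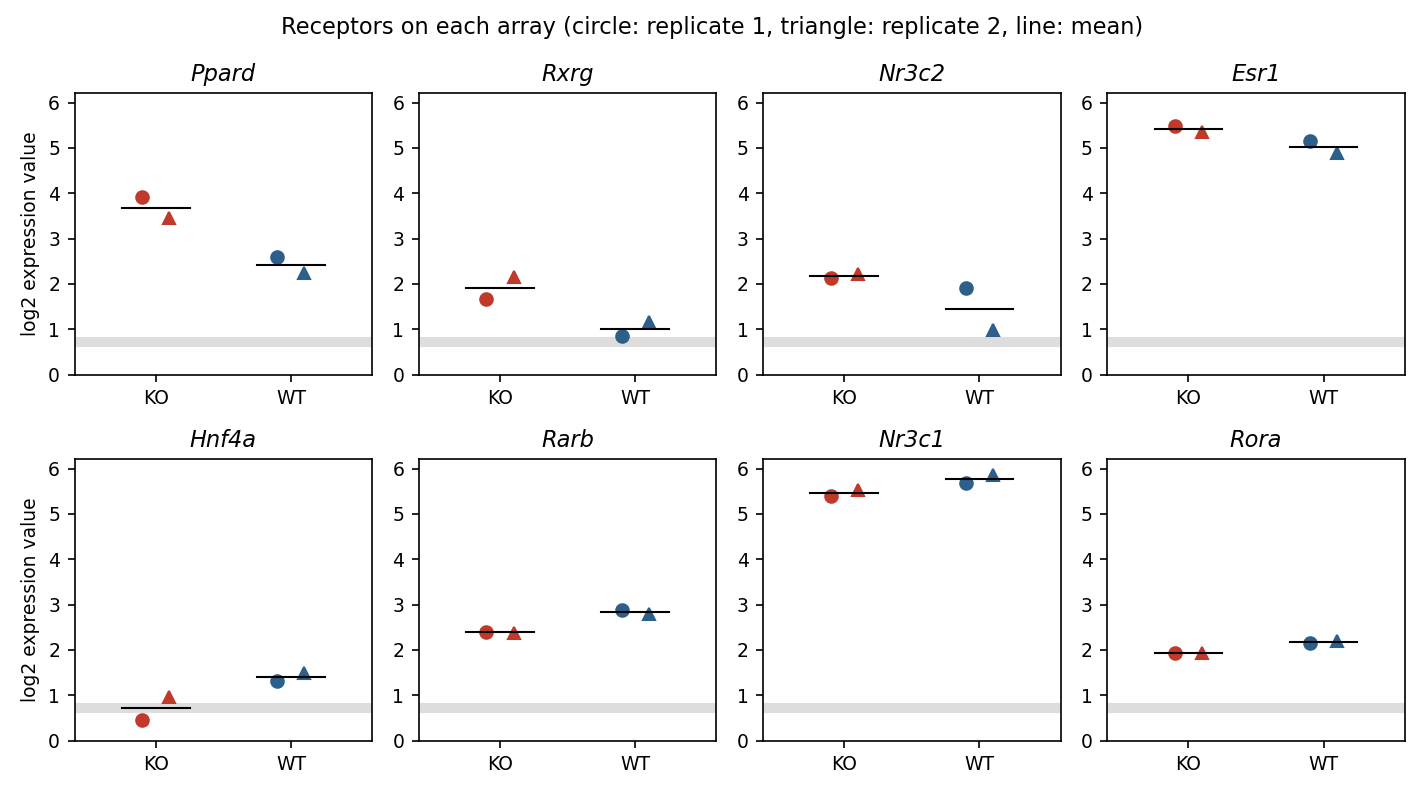
Log2 signal (y axis) of 8 receptors on each array, with KO left of WT, circles for replicate 1, triangles for replicate 2, a line at each mean and the background range in grey. Ppard, Rxrg, Nr3c2 and Esr1 (top row) lie higher on both KO arrays, and Hnf4a, Rarb, Nr3c1 and Rora (bottom row) lie lower.

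The promoters of these 4 receptors are shown because nuclear receptors often regulate one another through short sites near the start of transcription. Each window, from RefSeq on GRCm38.p6, runs from 250 bases before a start to 50 after it. Capitals mark a nuclear receptor half-site, either the consensus AGGTCA or one of the variants searched, GGTTCA and the similar AGTTCA. Other variants, GGGTCA among them, were not searched, so unmarked stretches may still hold half-sites. They also mark the GC box, which reads GGGCGG and binds factors of the Sp family. All were searched on both strands, and no match shown overlaps one of another motif. The Ppard window is chr17:28232504-28232803 on the plus strand, and holds 3 GC boxes and none of the half-sites searched. Rxrg has a pair of windows, and the one shown, chr1:167618015-167618314 on the plus strand, holds 2 half-sites, AGTTCA at base -164 and AGGTCA at base -88, counted from the start. The other Rxrg window has no match to the motifs searched. Hnf4a also has a pair, and the one shown, chr2:163506607-163506906 on the plus strand, has a single GC box while the other has no match. The Rarb window is chr14:16575427-16575726 on the minus strand.
Ppard: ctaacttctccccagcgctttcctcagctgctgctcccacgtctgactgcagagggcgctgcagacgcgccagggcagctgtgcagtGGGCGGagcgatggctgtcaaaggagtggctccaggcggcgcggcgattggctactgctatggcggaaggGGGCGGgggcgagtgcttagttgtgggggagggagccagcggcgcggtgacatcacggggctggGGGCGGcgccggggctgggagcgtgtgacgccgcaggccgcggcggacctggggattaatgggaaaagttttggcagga
Rxrg: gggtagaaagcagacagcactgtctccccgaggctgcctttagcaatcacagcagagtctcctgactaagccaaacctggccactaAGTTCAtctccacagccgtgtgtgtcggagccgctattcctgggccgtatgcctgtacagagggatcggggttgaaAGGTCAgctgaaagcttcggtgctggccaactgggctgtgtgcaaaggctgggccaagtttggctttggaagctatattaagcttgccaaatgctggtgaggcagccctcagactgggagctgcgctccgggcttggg
Hnf4a: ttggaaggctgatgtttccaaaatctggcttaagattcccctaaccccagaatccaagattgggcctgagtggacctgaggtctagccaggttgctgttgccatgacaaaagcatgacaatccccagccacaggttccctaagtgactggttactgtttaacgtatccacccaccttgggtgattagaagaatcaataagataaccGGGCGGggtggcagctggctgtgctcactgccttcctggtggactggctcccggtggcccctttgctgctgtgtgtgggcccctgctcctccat
Rarb: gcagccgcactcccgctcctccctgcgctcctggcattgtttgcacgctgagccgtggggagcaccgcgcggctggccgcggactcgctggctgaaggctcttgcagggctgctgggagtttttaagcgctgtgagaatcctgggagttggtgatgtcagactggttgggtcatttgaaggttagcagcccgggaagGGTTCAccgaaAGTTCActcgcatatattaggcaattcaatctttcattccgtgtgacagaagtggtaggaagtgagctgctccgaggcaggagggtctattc
In the Rarb window the capitals are GGTTCA and AGTTCA in the same direction with 5 bases between them, from base -53 to base -37. This is the arrangement of the textbook retinoic acid response element of that gene, through which retinoic acid raises its own receptor. Since GGTTCA and AGTTCA are the half-sites of that element, the match in Rarb was fixed by the choice of motifs. A direct repeat of the 3 half-sites searched, spaced by 5 bases, occurs in 20 of 32851 promoter windows (0.0609%). Rarb is the 1 window of a listed receptor among them. That share holds for these half-sites alone and does not measure how rare such elements are.

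Over the whole list the same letters were about as frequent as elsewhere. Windows were at hand for 32 of the 35 receptors, 50 windows in all. At least 1 of the 3 half-sites searched occurred in 15 of them (30%), against 35% of all windows. AGGTCA occurred in 16%, against 16.3% of all windows, GGTTCA in 8%, against 10.4%, and AGTTCA in 14%, against 14%. The GC box was in 21 windows (42%), against 35.7%. Of 17 measured receptors with a GC box, 12 exceeded background on all 4 arrays, and of 13 without one 8 did. A match is a description of letters, and none of these windows was measured for binding here.

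Among the other partners of the pairs, Rxrb read 2.62 and 3.35 in KO, against 2.63 and 2.28 in WT, a log2 difference of 0.52 (95% interval -0.20 to 1.25), which was 0.16 without KO replicate 2 and 0.89 without KO replicate 1. Rxra differed by 0.27 (-0.39 to 0.92). All 3 retinoid X receptors thus read higher on average in KO, but Rxra and Rxrb overlapped between genotypes, and Rxra had the opposite sign without WT replicate 1. Ppara, one of their partners, differed by 0.08 (-0.39 to 0.55). Pparg, the master regulator of fat cells and not one of the 35, read 8.33 and 8.31 in KO, against 8.37 and 8.09 in WT.

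The other retinoic acid receptors did not share the direction of Rarb. Rara, the broadly used form, read 2.97 and 2.26 in KO, against 2.08 and 2.33 in WT, a difference of 0.41 (-0.28 to 1.10) that was 0.056 without KO replicate 1. Rarg, known from skin and cartilage, read 2.78 and 2.22 in KO, against 1.82 and 2.60 in WT, a difference of 0.29 (-0.52 to 1.10). In both, KO replicate 1 was the highest array and the genotypes overlapped. Whether Rarb differs from its relatives was not tested. Rora and Rorb, retinoid-related orphan receptors named for their sequence and not for a retinoid ligand, were also split. Rora read 1.93 and 1.94 in KO, against 2.16 and 2.21 in WT, so its arrays did not overlap, at a difference of -0.25 (-0.68 to 0.19). Rorb read 2.06 and 1.32 in KO, against 0.98 and 1.86 in WT, and varied more within a genotype than between them.

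Of the steroid receptors, Esr1 read higher and Nr3c1 lower on both KO arrays. Esr1 differed by 0.40 (SE 0.20, 95% interval -0.09 to 0.89) and Nr3c1 by -0.31 (SE 0.19, -0.77 to 0.15). Neither interval excludes 0, and neither changed sign without any single array, at 0.26 to 0.53 for Esr1 and -0.39 to -0.23 for Nr3c1. Nr3c2, the mineralocorticoid receptor, which also binds glucocorticoids in fat, read 2.13 and 2.23 in KO, against 1.91 and 0.98 in WT. WT replicate 2 was far below the other 3 arrays. The difference of 0.74 (SE 0.32, -0.06 to 1.53) was 0.27 without that array and 1.20 without WT replicate 1. The second Nr3c2 probe set, which read 0.10 and 0.53 in KO and -0.02 and 0.00 in WT, lay below background throughout. With the mean of both probe sets the difference was 0.53. The dim steroid and vitamin receptors are given without a fold. Esr2, the second oestrogen receptor, read 0.86 and 0.08 in KO, against 0.27 and 0.19 in WT, and Vdr, the vitamin D receptor, 0.37 and 0.78 in KO, against 0.33 and 0.22 in WT. In each of them only 1 KO array exceeded background.

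The sterol and bile acid sensors were represented by Nr1h3, which differed by 0.09 (-0.38 to 0.57), and by Nr1h4, which lay at 0.40 and -0.40 in KO and 0.38 and -0.13 in WT, below background on all arrays. Nr0b2, a partner-blocking receptor without a DNA-binding domain that bile acids induce in liver, read 0.75 and 0.67 in KO, against 0.29 and 0.79 in WT, and exceeded background on 1 WT array. Nr5a2, which works with Nr0b2 on bile acid genes in liver, read 1.53 and 1.54 in KO, against 1.43 and 1.06 in WT. Its KO arrays were both higher, by 0.29 on average (-0.21 to 0.80), and by 0.11 to 0.48 without single arrays. Nr5a1, the regulator of steroid-making genes in adrenal and gonad, read 1.08 and 0.43 in KO, against 0.51 and 0.24 in WT. Both WT arrays and KO replicate 2 were below background and the genotypes overlapped, so it is given without a fold. Nr0b1 read 0.49 and 0.11 in KO, against -0.12 and -0.09 in WT. It was higher on both KO arrays but below background on all, so no fold is given. Of 5 markers of steroid-making cells, 0 exceeded background on all 4 arrays.

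The remaining orphan receptors showed no direction that held across arrays, apart from Nr2f1 and Nr2c1. Nr2f2, a COUP transcription factor of veins and mesenchyme, had the smallest difference of all, reading 2.26 and 2.32 in KO, against 2.11 and 2.46 in WT. Nr2f6, a relative studied in T cells, read 1.90 and 2.82 in KO, against 2.62 and 2.24 in WT. Nr2f1, best known from neural development, read 0.64 and 0.88 in KO, against 0.54 and 0.54 in WT. Both its WT arrays and 1 KO array were below background, so its fold is not given. Nr4a2, a receptor without a ligand pocket that is induced quickly after a stimulus, read 3.23 and 2.70 in KO, against 2.59 and 3.39 in WT, so that its arrays interleaved. Nr2c1 was higher on both KO arrays by 0.26 on average (-0.24 to 0.77; 0.093 without WT replicate 1 and 0.43 without WT replicate 2), and its partner Nr2c2 differed by -0.06 (-0.78 to 0.66). Nr6a1, the germ cell nuclear factor, read 0.41 and 0.42 in KO, against 0.73 and 0.39 in WT, with 1 WT array above background.

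The estrogen-related receptors had wide intervals or no signal. Esrrg differed by -0.19 (-1.20 to 0.82), with the widest gap between WT replicates among the receptors (1.20). Without WT replicate 2 its difference was 0.41, and without WT replicate 1 it was -0.79. Esrrb lay at 0.46 and -0.02 in KO and 0.40 and 0.36 in WT, all below background, as did Pgr (0.01 and -0.01 in KO, -0.02 and -0.03 in WT) and Hnf4g (-0.23 and -0.27 in KO, -0.12 and -0.19 in WT). The last 2 do not overlap between genotypes, at differences far inside the background.

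Genes that act with the receptors were counted in the same fit. For every list in this and the next paragraphs 0 members passed an adjusted p under 0.05, and the unadjusted counts stand against 5.56% of all genes. Of 20 coactivators, all above background, 6 read higher and 14 lower in KO, 0 of them with an unadjusted p under 0.05, and the median difference was -0.07. The split was 10 and 10 without WT replicate 1, and likewise without KO replicate 1. Ppargc1a, the coactivator of mitochondrial biogenesis, read 6.46 and 5.82 in KO, against 5.85 and 5.74 in WT. Ppargc1b, its relative, read 6.08 and 6.11 in KO, against 6.35 and 6.44 in WT. Of 11 corepressors measured of 13, 7 read higher and 4 lower, with a median of 0.03 and 1 with an unadjusted p under 0.05. That was Hr, a corepressor of vitamin D, thyroid and retinoid-related orphan receptors, at 2.03 and 1.47 in KO, against 0.84 and 0.98 in WT, a difference of 0.84.

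The enzymes that make or remove ligands were mixed. Of 21 measured genes of retinoid metabolism and transport, 10 read higher and 11 lower (median -0.02, 0 with an unadjusted p under 0.05). The median was -0.14 without WT replicate 1 and 0.15 without WT replicate 2. Dhrs3, a retinaldehyde reductase that lowers retinoic acid supply, read 6.76 and 6.64 in KO, against 6.33 and 6.23 in WT. Of 21 measured genes of steroid, vitamin D and oxysterol metabolism, 13 read higher and 8 lower (median 0.08). The 1 with an unadjusted p under 0.05 was Hsd11b1, which regenerates active glucocorticoid inside cells. It read 4.29 and 4.15 in KO, against 2.94 and 3.65 in WT, so that it was higher on both KO arrays while the receptor Nr3c1 was lower on both.

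Targets were listed by receptor, and their placement is textbook knowledge, mostly from liver and muscle. Of 27 measured Ppara and Ppard targets, 20 read higher (74.1%, against 52.6% of all genes) and 7 lower, with a median of 0.10. An unadjusted p under 0.05 was met by 2 of them, both higher. Acaa1b, a peroxisomal thiolase, read 3.61 and 3.26 in KO, against 2.41 and 2.16 in WT, a difference of 1.15. Fabp3, a fatty acid carrier, had a difference of 1.37 on its brightest probe set and 0.55 when its probe sets were averaged. Among the 7 lower, Pdk4 read 9.03 and 9.17 in KO, against 9.22 and 9.25 in WT. Angptl4, also lower on average, read 6.79 and 7.83 in KO, against 7.76 and 7.60 in WT, so its arrays overlapped. Of 17 measured liver X receptor targets, 13 read higher (76.5%, against 52.6% of all genes) and 4 lower (median 0.15). At an unadjusted p under 0.05, 2 of them were higher and 1 lower. Srebf1, the regulator of lipogenesis that liver X receptors induce, read 5.36 and 5.20 in KO, against 4.50 and 4.77 in WT. Fasn, the fatty acid synthase, was also higher and Cd5l, a macrophage product, lower at that p (differences of 1.67 and -0.74). Cd5l read 0.36 and 1.04 in KO, the first of these below background, against 1.44 and 1.44 in WT.

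Glucocorticoid receptor targets read mostly lower in KO, as did Nr3c1, whose own interval includes 0. A link between the receptor and the list was not tested, and the list, like the others, was chosen with earlier results of these data known. All 20 exceeded background, and in KO 3 read higher (15%, against 52.6% of all genes) and 17 lower. The median was -0.16, with 3 lower at an unadjusted p under 0.05. Per1, a clock gene with a glucocorticoid response element, read 4.89 and 5.02 in KO, against 5.48 and 5.65 in WT. Errfi1, an inhibitor of growth factor receptors, read 3.75 and 4.47 in KO, against 4.78 and 4.84 in WT, and Lcn2, an iron-binding acute phase protein, 1.13 and 1.25 in KO, against 2.15 and 1.53 in WT. Of the targets most used to read glucocorticoid action, Fkbp5 read 2.58 and 1.79 in KO, against 2.39 and 2.31 in WT, and Tsc22d3 1.15 and 1.39 in KO, against 1.53 and 1.29 in WT. Both overlapped between genotypes, and the difference of Fkbp5 was 0.23 without KO replicate 2. Dusp1, a phosphatase and target, read 6.72 and 7.48 in KO, against 6.73 and 6.66 in WT, so its difference of 0.40 rested on KO replicate 2 (0.023 without it). After centring each gene, the median of the list stood at -0.18 and 0.01 in KO, against 0.09 and 0.05 in WT, so KO replicate 1 carried most of it. Without that array the median was -0.08 and 13 read lower.

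The other target lists had medians from -0.04 to 0.13, each of which took the other sign without some array. For retinoic acid receptors, 5 read higher and 6 lower of 11 measured, with a median of -0.04 (0.039 without KO replicate 1). The 1 with an unadjusted p under 0.05 was Rarb itself, which read lower. Dhrs3, given above as a retinaldehyde reductase, is also on this list and read higher on both KO arrays, by 0.42. For the farnesoid X receptor and hepatocyte nuclear factor 4, 8 read higher and 6 lower of 14 (median 0.13, and -0.022 without KO replicate 1), with 2 above background on all 4 arrays. For oestrogen, progesterone and vitamin D receptors it was 8 and 6 of 14 (median 0.02, and -0.030 without KO replicate 1), again with 2 above background on all 4. For estrogen-related receptors, 12 read higher and 7 lower of 19 (median 0.03, and -0.0072 without KO replicate 2), with Ckmt2, a creatine kinase of muscle, lower at an unadjusted p under 0.05. It read 0.15 and 0.38 in KO, below background, against 0.80 and 2.84 in WT. For retinoid-related orphan receptors, 8 read higher and 3 lower of 11 (median 0.09), with the clock repressor Cry1 lower at that p. Without WT replicate 2 it was 5 higher and 6 lower (median -0.011). Cry1 read 0.66 and 0.89 in KO, the first of these below background, against 1.96 and 1.14 in WT. Of 12 other nuclear receptors measured, outside the 35, 7 read higher and 5 lower (median 0.05, 0 with an unadjusted p under 0.05). That split turned to 3 and 9 without WT replicate 2 (median -0.065) and without KO replicate 2 (median -0.087).

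**Figure D4:**
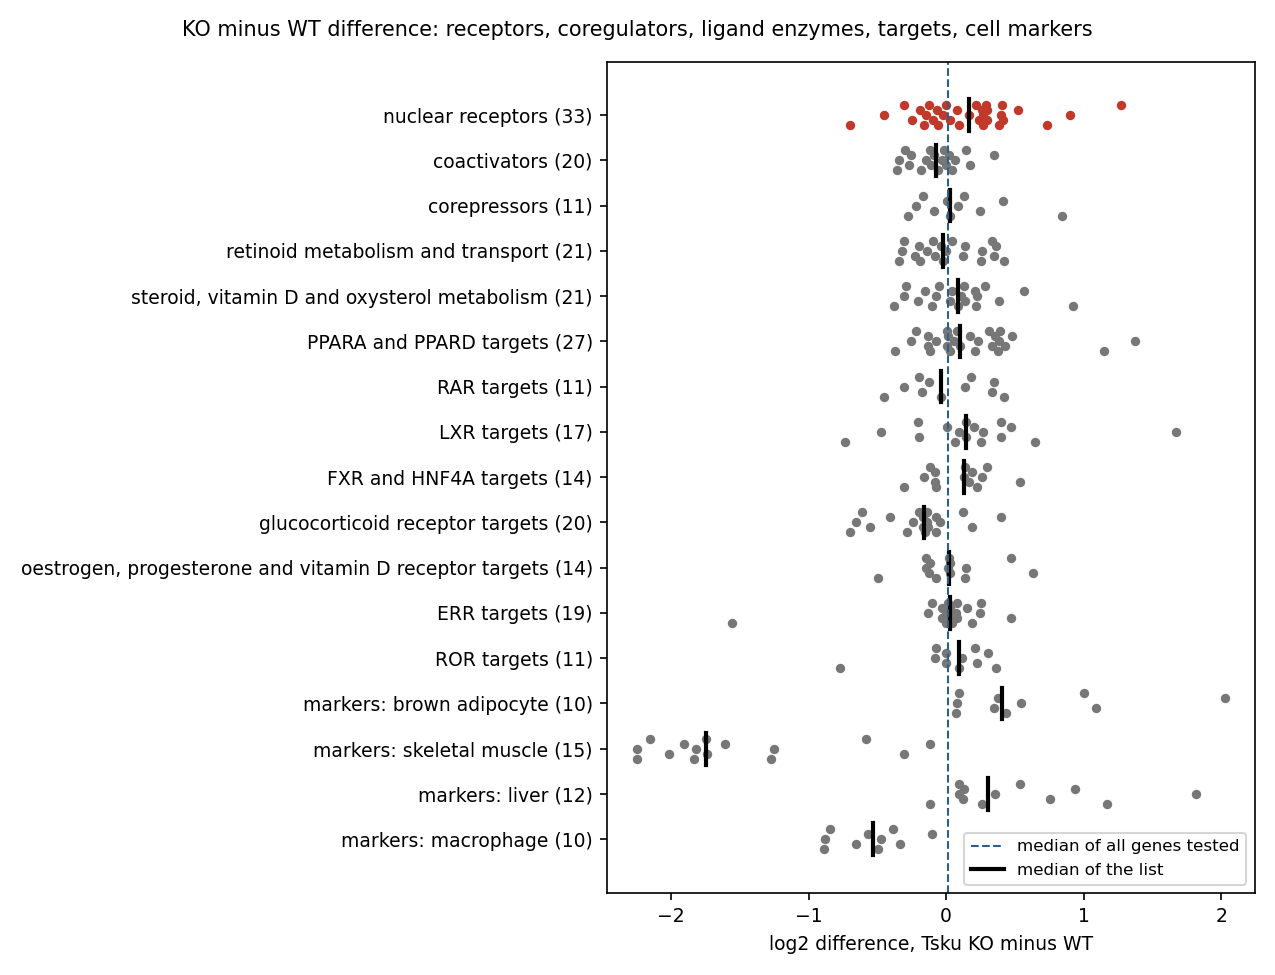
Log2 difference, Tsku KO minus WT (x axis), of each measured gene (points) in the receptor list (red), in lists of related genes and in marker lists (grey), with the number measured in brackets, a black line at each list's median and a dashed line at the median of all genes. The receptors' median is 0.17, the glucocorticoid receptor targets' -0.16 and the skeletal muscle markers' -1.74.

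Markers of other cells also moved between the arrays, and their part in the receptor differences was not tested. In a piece of tissue, fewer cells of a type and less of an RNA in each cell cannot be told apart. All 15 skeletal muscle markers read lower in KO, 10 of them above background on all arrays, with a mean log2 signal of 2.77 and 1.65 in KO, against 3.47 and 3.99 in WT. Among the receptors known from muscle, Esrrg was highest on WT replicate 2, the array with the most muscle signal, but lowest on WT replicate 1, the next in muscle signal. Ppard and Rxrg were higher on the KO arrays, where that signal was lower. All 10 macrophage markers read lower in KO, at a mean of 3.21 and 4.00, against 4.10 and 4.24 in WT. Macrophages also express the glucocorticoid receptor, and KO replicate 1, with the lowest macrophage signal, had the lowest Nr3c1 value. The 8 endothelial markers had a mean of 4.94 and 5.39 in KO, against 5.24 and 5.04 in WT. Their median difference of -0.03 was 0.22 without KO replicate 1 and -0.27 without KO replicate 2. All 10 brown adipocyte markers read higher in KO, with a median difference of 0.41, beside the higher values of Ppard, Rxrg and Esr1.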

How the data were processed

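Total RNA of 2 Tsku KO and 2 WT brown fat samples was labelled and hybridised to whole-transcript arrays, per the labels' protocols. For 41345 probe sets the authors deposited log2 expression values. Per the submitters' processing notes, the tools were RMA, oligo and limma. Their roles, their versions and the genome build are not given in the sources used here. RMA can pull dim probe sets together, and its effect on the differences of dim genes was not measured here. Of the probe sets, 23521 had 1 gene symbol, 1814 several and 16010 none listed, and the first of these gave 22180 genes, each with its probe set of highest mean.

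KO was compared with WT in limma 3.58.1 (R 4.3.3) by lmFit and eBayes at default settings, two-sided, without a block or filter, with Benjamini-Hochberg adjustment over all 22180 genes and a threshold of 0.05. Residual degrees of freedom were 2 and prior degrees of freedom 3.96. Each standard error, interval and p-value of the fit thus draws on the spread of all genes as well as the gene's own. The script was tested on simulated data. Receptors with 1 genotype wholly below background were given by their values, without a fold. Values on all arrays are given for the 8 receptors of highest mean, for those with an unadjusted p under 0.05, for the 10 of smallest p among those whose genotypes do not overlap, and, beyond that rule, for the rest, and up to 4 genes of smallest p were considered per related list. Fkbp5, Tsc22d3, Dusp1, Pparg, Pdk4, Angptl4, Abcg1 and Abca1 were named outside that rule after their values were seen. Promoter windows came from RefSeq (GRCm38.p6) and were searched for 4 motifs. The members and lists were chosen with earlier results of these data known. Alternatives covered a replicate block, a filter at the median level, probe set rules, normalization, variance settings, background percentiles and each sample left out. Replicate numbers were not shown to pair the samples: deviations of same-numbered samples correlated at -0.07 over genes.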

Additional observations from a re-analysis of the deposited data

How the results depend on the processing

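The count of receptors past an adjusted p of 0.05 was 0 under every alternative run. The count of all genes past it was 0, and 1 with the replicate block, 1 with arrays centred on their medians and 1 with a mean trend in eBayes. Without single samples it was 0 to 15, with 15 without WT replicate 1 and 2 without WT replicate 2. Receptors with an unadjusted p under 0.05 numbered 4, and 2 with a mean trend, and 2 to 6 without single samples, 2 without WT replicate 2. The replicate block left that count at 4, with Nr3c2 (p 0.0437 in limma) in place of Rarb (p 0.0850), and the receptors' median at 0.17. That median ran from 0.056 to 0.24 without single samples. Of the 22 receptors above background on at least 1 array of each genotype, 10 had a sign change without a single sample: Ppara (-0.014 to 0.17), Nr2c2 (-0.46 to 0.34), Nr1h3 (-0.020 to 0.21), Rxra (-0.064 to 0.60), Esrrg (-0.79 to 0.41), Nr4a2 (-0.43 to 0.37), Nr2f6 (-0.53 to 0.39), Rarg (-0.10 to 0.68), Nr2f2 (-0.17 to 0.17) and Rorb (-0.17 to 0.71). Nr2f2 also had the other sign, at -0.0060, with cyclic loess. Among the related genes named, Ccnd1, an oestrogen receptor target with a difference of -0.50, ran from -1.23 to 0.24 and turned positive without KO replicate 1. Fkbp5 ran from -0.56 to 0.23 and Pparg from -0.049 to 0.23. The cause was not tested. The number of receptors above background on all 4 arrays was 21, and 22 with the 90th and 17 with the 99th percentile as background. With 2 arrays per genotype, differences of receptors near background rest on very little signal.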
